A study of Mus musculus with 15 samples.

Results

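The genes that copy DNA were followed across 15 Affymetrix arrays of mouse myeloid cells. The 42 genes were listed by their function in replication: origin licensing, the Mcm2-7 helicase and its activation, the DNA polymerases, the sliding clamp and its loader, strand processing, deoxynucleotide synthesis and fork protection. Of them, 41 had a probe set annotated to a single gene, out of 22180 genes with such a probe set, and all 41 passed the filter on low signal that left 14822 genes for testing. Rfc4, a clamp loader subunit, was left out because its probe set also lists Eif4a2.

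Each of 5 groups of C57Bl/6 cells held 3 arrays. GFK arrays held lineage-negative CD11b+CD34+ spleen cells of G-CSF-treated mice labelled iNOS knockout, with no allele named. GFE arrays held the same kind of cells, from G-CSF-treated mice not labelled knockout, after 3 days with Flt3 ligand and SCF, growth factors for progenitors. MDSC arrays held myeloid-derived suppressor cells, Ly6C+CD11b+ cells grown from bone marrow with G-CSF, GM-CSF and IL-13. RB and GFW arrays held uncultured CD11b+CD34+ spleen cells of G-CSF-treated mice and share all labels but the code in their titles. The lineage gate removed cells with CD4, CD8, Ly6G, B220 or Ter119. The labels give no ages or pools of mice, and do not say that replicates came from separate mice, so p-values here rest on the spread among the arrays of a group, part or all of which may be technical.

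Replication starts at origins, where the origin recognition complex, Cdc6 and Cdt1 load the Mcm2-7 rings in G1, and kinases then switch the rings on with Cdc45 and the GINS complex. Polymerase alpha-primase lays down primers, polymerases epsilon and delta extend the leading and lagging strands on the PCNA clamp, and Fen1 and Lig1 seal the lagging fragments. Many of these genes are targets of E2F transcription factors and are transcribed mainly in cells that are entering or passing through S phase, as proliferating myeloid progenitors do and mature granulocytes do not.

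Values are log2 signals of robust multi-array average (RMA) processing, on which a difference of 1 is 2-fold. Levels of different genes are not compared, because probe sets differ in brightness. Array medians lay between 5.52 and 5.72. The calling threshold was an adjusted p of 0.05 in limma's moderated test (Benjamini-Hochberg over all genes tested), and each difference is printed with limma's standard error. Where the mean of the lower group lay under the 40th percentile of probe sets, a called difference is a lower bound and is written "at least". RNA came from whole populations, so fewer cells with a transcript and less of it per cell cannot be told apart.

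The labelled populations were checked on the genes of the gate. Itgam (CD11b) lay between 11.26 and 11.74 on the GFK, RB and GFW arrays, at 7.82 to 8.01 on GFE arrays and at 10.28 to 10.37 on MDSC arrays. Ly6g, which the gate should remove, had 12.03 to 12.12 on GFK arrays and 12.15 to 12.21 on GFW arrays, against 6.19 to 6.38 on RB arrays, so its transcript went against the label in GFK and GFW. Cd34 had 11.25 to 11.31 on GFE arrays, 5.79 to 5.99 on RB arrays and 6.99 to 7.39 on GFW arrays. On RB arrays Cd34 lay close to the array medians of 5.63 to 5.65, so its transcript was low for a CD34+ label. MDSC arrays carried Ly6c2 at 12.64 to 12.75. The iNOS gene Nos2 had 8.84, 8.91 and 8.92 on the arrays labelled iNOS knockout, all of them higher than the 8.09, 8.32 and 8.43 of GFW arrays (difference 0.61 ± 0.12, adjusted p = 0.0125). Where in the gene its probes lie was not analysed here, so this does not check the deletion. GFK, GFE and GFW titles share a prefix, while MDSC and RB titles have their own, so prefix and population cannot be told apart where MDSC or RB is compared.

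The promoters of the members are shown because many genes of replication are targets of E2F. Windows of 300 bases, from 250 before to 50 after the RefSeq gene start (GRCm38.p6, the first listed start of each gene), were given for 34 of the 42 members. The windows of Prim1 (chr10:128014965-128015264, plus strand), Rrm1 (chr7:102441445-102441744, plus strand), Mcm6 (chr1:128359656-128359955, minus strand) and Pole2 (chr12:69228141-69228440, minus strand) belong to 4 of the 5 members with the largest difference between GFE and GFW. The window of Gins3 (chr8:95633309-95633608, plus strand) belongs to the only member not called there. Each is written from 5′ to 3′ on the strand of the gene, with E2F cores and CCAAT boxes of either strand in capitals.
Prim1: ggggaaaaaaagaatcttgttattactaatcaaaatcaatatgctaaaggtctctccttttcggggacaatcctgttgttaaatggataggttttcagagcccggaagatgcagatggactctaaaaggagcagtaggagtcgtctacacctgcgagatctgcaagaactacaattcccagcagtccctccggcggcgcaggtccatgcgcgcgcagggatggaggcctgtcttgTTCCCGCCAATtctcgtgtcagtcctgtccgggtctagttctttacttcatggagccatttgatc
Rrm1: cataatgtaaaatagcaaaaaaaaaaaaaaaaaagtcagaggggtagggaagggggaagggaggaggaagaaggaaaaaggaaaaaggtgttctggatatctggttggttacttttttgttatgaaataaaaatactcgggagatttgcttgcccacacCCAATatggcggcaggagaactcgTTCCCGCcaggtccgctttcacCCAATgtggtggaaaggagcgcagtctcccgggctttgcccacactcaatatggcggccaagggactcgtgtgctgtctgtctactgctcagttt
Mcm6: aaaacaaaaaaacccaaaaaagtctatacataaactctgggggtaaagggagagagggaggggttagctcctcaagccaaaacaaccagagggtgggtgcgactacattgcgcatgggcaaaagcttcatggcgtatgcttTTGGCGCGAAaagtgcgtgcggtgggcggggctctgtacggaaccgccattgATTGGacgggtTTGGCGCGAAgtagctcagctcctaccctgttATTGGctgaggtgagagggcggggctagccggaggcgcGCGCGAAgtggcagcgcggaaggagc
Pole2: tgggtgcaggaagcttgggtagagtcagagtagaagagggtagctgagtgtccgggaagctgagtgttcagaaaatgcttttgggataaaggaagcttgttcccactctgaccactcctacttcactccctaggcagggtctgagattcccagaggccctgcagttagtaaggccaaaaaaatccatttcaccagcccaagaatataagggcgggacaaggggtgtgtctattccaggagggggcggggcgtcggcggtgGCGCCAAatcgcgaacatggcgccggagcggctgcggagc
Gins3: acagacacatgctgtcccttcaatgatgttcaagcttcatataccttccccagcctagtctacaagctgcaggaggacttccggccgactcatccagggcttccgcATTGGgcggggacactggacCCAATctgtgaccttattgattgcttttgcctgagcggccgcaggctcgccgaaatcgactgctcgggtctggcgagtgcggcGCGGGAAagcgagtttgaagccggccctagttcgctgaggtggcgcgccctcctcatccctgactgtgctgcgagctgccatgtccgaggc
In Prim1 an E2F core runs into a CCAAT box and shares a base with it. In Mcm6, 4 of the 5 E2F cores form overlapping pairs on opposite strands. The Gins3 window also holds an E2F core and CCAAT boxes.

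An E2F core, searched on either strand as TTCCCGC or one of the variants TTCGCGC, further TTGCCGC, and lastly TTGGCGC, was found in 20 of the 34 windows, or 58.8%. The 34 windows include that of Rfc4, which held 1 E2F core and no CCAAT box, although Rfc4 was not among the tested genes. The same letters occur in 15.3% of the windows of 11560 tested genes and in 9.69% of all 27025 windows. The CCAAT box, bound by NF-Y, was in 20 of the 34 members (58.8%) and in 37.9% of the windows of tested genes. Both motifs were in 13 members (38.2%) and in 6.13% of the windows of tested genes. The CHR element of late cell cycle genes (TTTGAA or TTTAAA, either strand) was in 8 members (23.5%), close to the 19.9% of the windows of tested genes. Matches of the E2F core and CCAAT can share bases, as can E2F cores on opposite strands, and each was counted. A match describes letters only, and whether a factor binds there was not tested. Mcm6 held 5 E2F cores, Pola1 4, and Mcm3, Mcm5 and Mcm7 3 each, and the last 3 each held 3 CCAAT boxes as well. No E2F core was found for Rpa1, Lig1 or Mcm2, whose GFE minus GFW differences were 2.64, 2.45 and 2.41. Pold3 and Rpa2, with smaller differences of 0.73 and 0.96, each held 1. Whether an E2F core goes with the size of a difference was not tested.

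**Figure D1:**
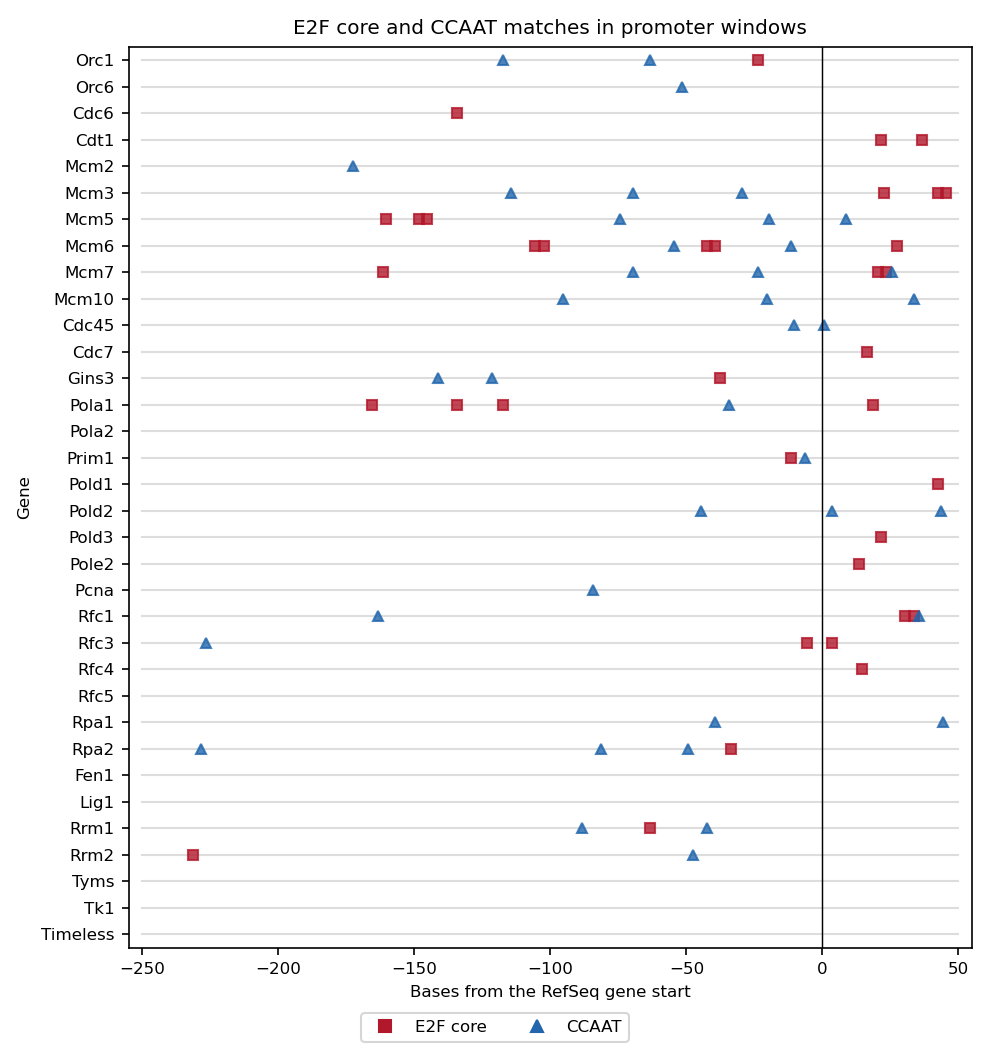
Positions of E2F cores (squares) and CCAAT boxes (triangles) in the promoter windows of the 34 members that have one, in bases from the RefSeq gene start (0). Rows without a symbol hold neither motif, and 13 rows hold both.

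The first comparison sets cells labelled as cultured (GFE) against uncultured cells of the same labelled gate (GFW), and no label says that the GFW cells were the starting cells of GFE. Of the 41 members, 40 rose and 0 fell in GFE, against 35.1% of all tested genes called higher and 31.9% called lower. At an unadjusted p under 0.05 the counts were also 40 and 0. In all, 37 rose at least 2-fold, against 18.3% of all genes. The median difference of the members was 2.06, and that of all genes was -0.06. Every member lay higher on each GFE array than on each GFW array, which held for 37.1% of all genes. Averaged over the 41 members, the signal was 8.83 to 8.86 on GFE arrays and 6.77 to 6.82 on GFW arrays. Adjusted p of the called members ran from 2.45e-12 for Tipin to 0.00264 for Rpa2. The 40 calls were kept without any 1 array of either group.

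**Figure D2:**
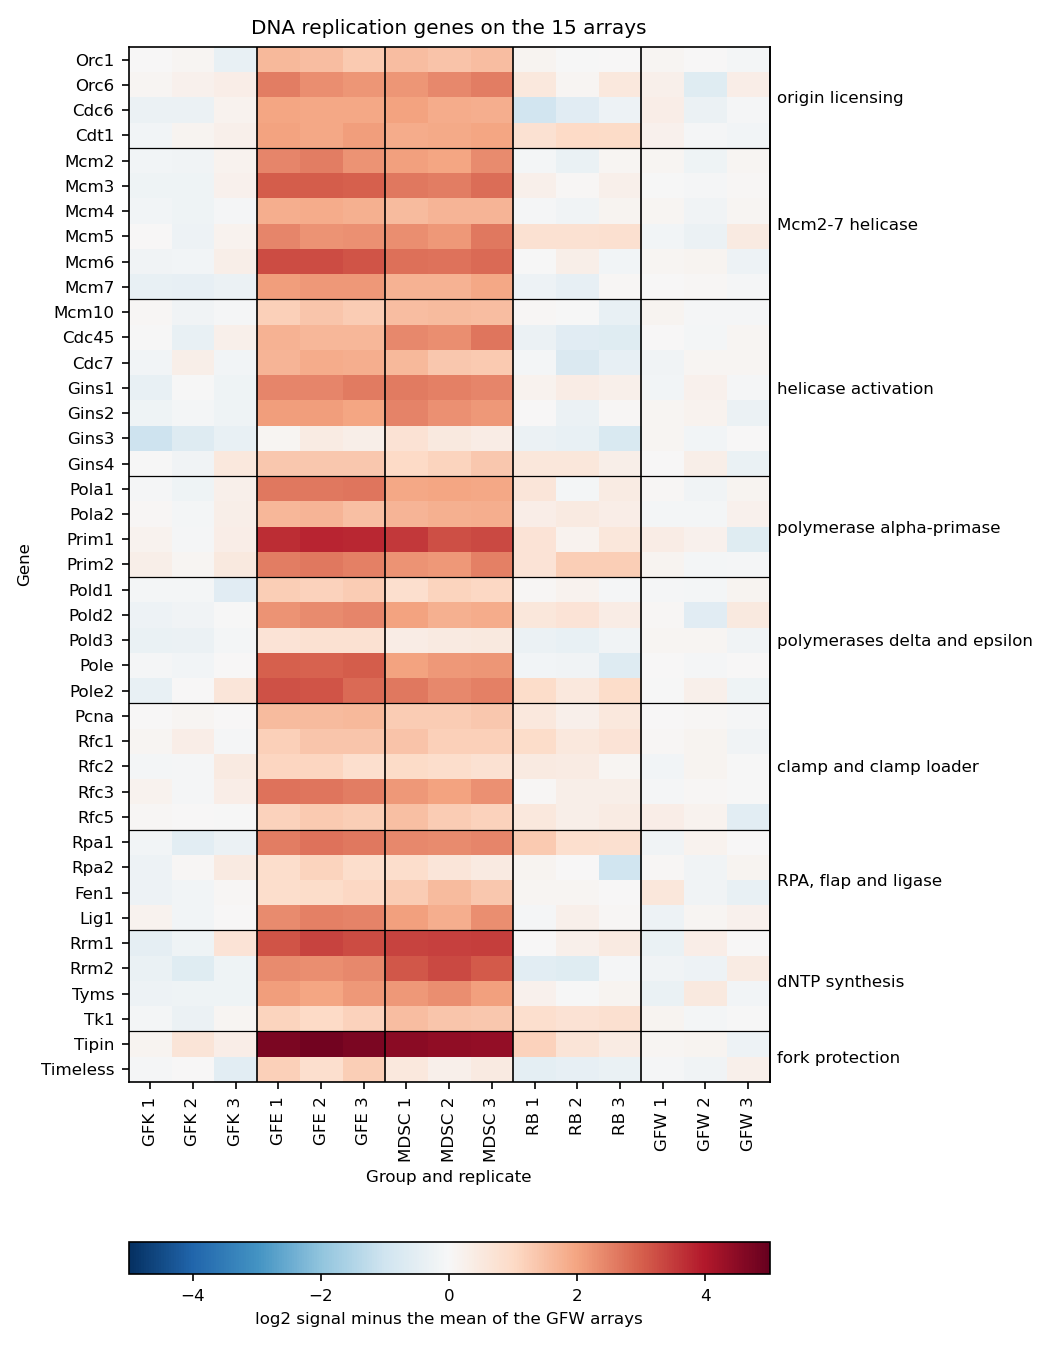
Log2 signal of each member on each array minus its mean on the GFW arrays, with genes in rows by function and arrays in columns by group. GFE and MDSC arrays are red for nearly all genes and reach 4.74 for the group mean of Tipin, while the group means of GFK and RB lie between -0.68 (Gins3 in GFK) and 1.05 (Prim2 in RB).

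All 4 licensing genes rose in GFE. Orc6, a subunit of the origin recognition complex, had 9.14, 8.90 and 8.77 on GFE arrays, against 6.84, 5.99 and 6.92 on GFW arrays (difference 2.36 ± 0.20, adjusted p = 5.11e-08). The groups did not overlap, and GFW replicate 2 was the lowest array. Cdt1 rose by 2.01, Cdc6 by 1.94 and Orc1, the large ATPase subunit of the complex, by 1.49. The 6 Mcm2-7 genes, which encode the ring that unwinds DNA, rose by 1.81 (Mcm4) to 3.22 (Mcm6), with a median of 2.37. Mcm6 had 10.75, 10.74 and 10.63 on GFE arrays, against 7.57, 7.64 and 7.25 on GFW arrays (difference 3.22 ± 0.15, 9.32-fold, adjusted p = 2.55e-11). The arrays of each group lay close together beside the gap between the groups.

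Of the 7 genes that switch the helicase on, 6 rose and 1 did not pass the test. Gins1, a GINS subunit, had 8.24, 8.27 and 8.40 on GFE arrays, against 5.67, 6.01 and 5.77 on GFW arrays (difference 2.49 ± 0.12, adjusted p = 5.02e-11). Gins2 rose by 2.06, the Mcm kinase gene Cdc7 by 1.79, Cdc45 by 1.68, Gins4 by 1.35 and Mcm10 by 1.28. Gins3, the remaining subunit of the GINS complex, was the exception. It had 7.45, 7.74 and 7.64 on GFE arrays, against 7.45, 7.22 and 7.35 on GFW arrays (difference 0.27 ± 0.17, adjusted p = 0.164). The lowest GFE array and the highest GFW array were equal to the second decimal. Over the alternatives its adjusted p ran from 0.0599 to 0.361. The 4 subunits of 1 complex therefore had differences from 0.27 to 2.49 on their own probe sets.

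All 4 genes of polymerase alpha-primase rose. Prim1, the catalytic primase subunit, had 8.95, 9.06 and 9.01 on GFE arrays, against 5.63, 5.48 and 4.66 on GFW arrays (difference at least 3.75 ± 0.20, adjusted p = 2.03e-10). The GFW values lay near or below the filter level, which was 5.34 to 5.58 on the arrays. Pola1, the catalytic polymerase subunit, rose by 2.66, the large primase subunit gene Prim2 by at least 2.57 and Pola2 by 1.63. All 5 genes of polymerases delta and epsilon rose. Pole2, a subunit of polymerase epsilon, had 8.24, 8.22 and 7.88 on GFE arrays, against 5.04, 5.31 and 4.84 on GFW arrays (difference at least 3.05 ± 0.20, adjusted p = 2.37e-09). The catalytic subunit gene Pole rose by 2.99 on its brighter probe set, while its other one differed by 0.95, so its size depends on the probe set. Pold2 rose by 2.35 and Pold1, the catalytic subunit of polymerase delta, by 1.22. Pold3, an accessory subunit, rose by 0.73, the smallest difference among the 40 called members.

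The 5 measured genes of the clamp and its loader rose. Pcna, the clamp, rose by 1.60. Rfc3, a loader subunit, had 8.50, 8.46 and 8.35 on GFE arrays, against 5.76, 5.87 and 5.77 on GFW arrays (difference 2.64 ± 0.12, adjusted p = 2.31e-11). The other loader subunits rose less, by 1.31 (Rfc1), 1.24 (Rfc5) and 1.01 (Rfc2). Rpa1, the large subunit of the protein that coats single-stranded DNA, had 8.97, 9.15 and 9.05 on GFE arrays, against 6.25, 6.59 and 6.43 on GFW arrays (difference 2.64 ± 0.14, adjusted p = 1.92e-10). The DNA ligase gene Lig1 rose by 2.45, the middle RPA subunit gene Rpa2 by 0.96 and the flap nuclease gene Fen1 by 0.95.

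The 4 genes of deoxynucleotide synthesis rose, as did both genes of fork protection. Rrm1, the large subunit of ribonucleotide reductase, had 10.11, 10.35 and 10.23 on GFE arrays, against 6.63, 7.29 and 6.98 on GFW arrays (difference 3.27 ± 0.23, 9.63-fold, adjusted p = 3.79e-09). Its partner Rrm2 rose by 2.36, the thymidylate synthase gene Tyms by 2.06 and the thymidine kinase gene Tk1 by 1.10. Tipin, which travels with the fork in a complex with Timeless, had 9.89, 9.99 and 9.87 on GFE arrays, against 5.27, 5.33 and 4.94 on GFW arrays. Its difference of at least 4.74 ± 0.17 (at least 26.7-fold, adjusted p = 2.45e-12) was the largest of the 41 members. Its partner Timeless rose by 1.09, to a mean of 7.19 in GFE, against 6.10 in GFW. Tipin, Prim1, Prim2, Pole and Pole2 were above the filter level on 10 or 11 of the 15 arrays. Only 6 arrays held cultured cells and the filter asked for 3 arrays, so each would also have passed on uncultured arrays alone.

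**Figure D3:**
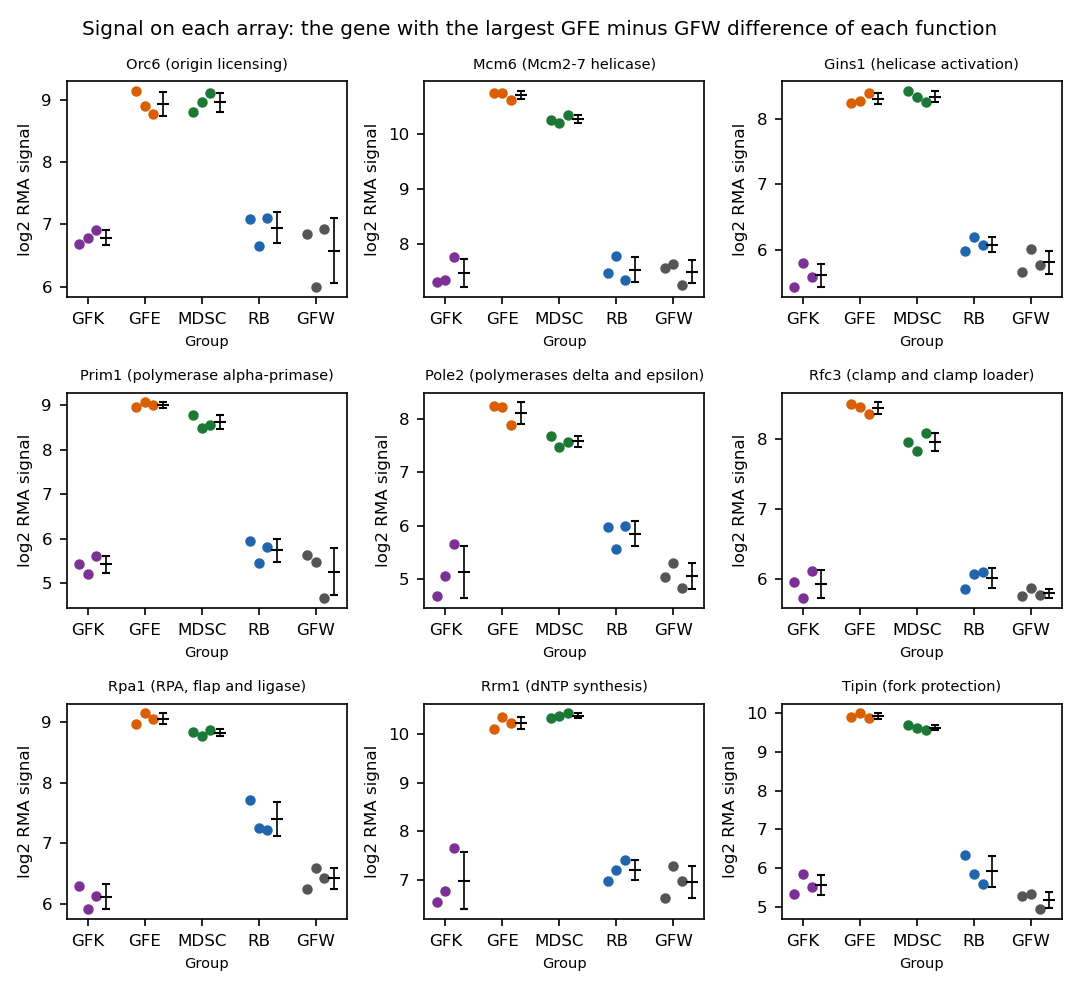
Log2 RMA signal on each array (points) with the group mean and SD (bars, n = 3) for the member with the largest GFE minus GFW difference of each function. In all 9 panels the GFE and MDSC points lie above the points of GFK, RB and GFW, with Tipin near 10 in GFE and near 5 in GFW.

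Other genes of the cell cycle were listed for comparison. Of 26 further replication genes, 22 rose and 1 fell in GFE (median 1.71). Atad5, which helps to unload the clamp, rose by at least 3.28, the origin recognition gene Orc2 by 3.17, Wdhd1 by 2.93 and Topbp1 by 2.53. The gene that fell was Mcmbp (-0.31 ± 0.10, adjusted p = 0.0114), named after its value was seen. Of 13 genes of nucleotide supply, 10 rose and 2 fell. Shmt2, which feeds the one-carbon units for thymidylate, rose by 4.31, and Dtymk, the thymidylate kinase gene, by 2.70. The 2 that fell, named after their values were seen, were Samhd1 (-1.72 ± 0.09, adjusted p = 1.46e-10), whose enzyme degrades deoxynucleotides, and the deoxycytidine kinase gene Dck (-1.65 ± 0.12, adjusted p = 6.84e-09). All 12 genes of chromatin assembly behind the fork rose, among them Dnmt1 by 2.60 and Uhrf1 by 2.53, and all 15 mitosis genes rose (median 1.82). Of 25 regulators of G1 and S entry, 17 rose and 5 fell: Cdk6 rose by 4.30 and Cdk4 by 3.10, while Cdkn2d, an inhibitor of these kinases, had a difference of -2.62 ± 0.11 (adjusted p = 1.01e-11).

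Markers of other cells moved together with these genes. All 8 neutrophil markers fell in GFE. Their mean over the list was 4.99 to 5.24 on GFE arrays, against 10.77 to 10.85 on GFW arrays, and Ly6g, Retnlg and Camp were under the 40th percentile in GFE. Of 8 progenitor markers, 7 rose and 1, Kit, fell, with list means of 9.85 to 9.99 on GFE arrays and 7.28 to 7.41 on GFW arrays. Of 7 monocyte markers, 6 fell and 1, Fn1, rose, with list means of 6.26 to 6.49 on GFE arrays and 8.24 to 8.31 on GFW arrays, and F13a1 and Ace were under the 40th percentile in GFE. All 6 macrophage markers fell, with list means of 5.70 to 5.93 on GFE arrays and 8.04 to 8.32 on GFW arrays, and Cd5l and Mrc1 were under the 40th percentile in GFE. All 3 B cell markers fell as well, with list means of 4.99 to 5.10 on GFE arrays and 5.79 to 6.41 on GFW arrays, and Cd79a and Ms4a1 were under the 40th percentile in GFE. The part of these shifts in the replication result was not tested.

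MDSC, the other cultured population, was compared with RB and with GFW, the uncultured sets not labelled knockout. All 41 members rose against RB, beside 27.4% of all genes called higher and 20.7% lower. All 41 also rose against GFW, beside 32.3% of all genes called higher and 30.0% lower. The median differences were 1.67 against RB and 1.92 against GFW, beside 0.04 and -0.08 over all genes. In all, 31 members rose at least 2-fold against RB (9.86% of all genes) and 36 against GFW (16.3%). GFE and MDSC were each compared with the same GFW arrays, so the comparisons are not independent. Tipin had 9.70, 9.60 and 9.56 on MDSC arrays, against 6.35, 5.84 and 5.58 on RB arrays (difference 3.70 ± 0.17, adjusted p = 9.01e-11). Rrm2 had 11.01, 11.20 and 10.97 on MDSC arrays, against 7.38, 7.29 and 7.83 on RB arrays (difference 3.56 ± 0.18, adjusted p = 1.43e-10). Neither gene overlapped between these groups. Rrm1 rose by 3.18, Cdc45 by 2.95 and Prim1 by 2.87 against RB. Against GFW the largest differences were at least 4.44 for Tipin, 3.41 for Rrm1, at least 3.35 for Prim1, 3.17 for Rrm2 and 2.78 for Mcm6.

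The smallest differences of MDSC were 0.54 for Rfc2 against RB and 0.40 for Timeless against GFW. Of the calls against GFW, 3 ended without 1 array. Gins3 (0.52 ± 0.17, adjusted p = 0.015) ended without MDSC replicate 1 (0.0702) or GFW replicate 2 (0.0556). Rpa2 (0.63 ± 0.24, adjusted p = 0.0342) ended without MDSC replicates 1 or 2 or GFW replicates 1 or 2, with an adjusted p of up to 0.123. Timeless (0.40 ± 0.16, adjusted p = 0.0335) ended without MDSC replicates 1 or 3 or GFW replicates 1 or 2, with an adjusted p of up to 0.135. Monocyte markers moved beside the comparison with RB: 6 of 7 were lower in MDSC, with list means of 7.75 to 7.97 on MDSC arrays and 11.59 to 11.67 on RB arrays, none under the 40th percentile in either group. Of 6 macrophage markers 5 were lower and 1 higher in MDSC than in RB, with list means of 7.30 to 7.40 on MDSC arrays and 7.56 to 8.11 on RB arrays and Cd5l under the 40th percentile in both. Against GFW, 5 of 8 neutrophil markers were lower and 3 higher, with list means of 8.35 to 8.39 on MDSC arrays and 10.77 to 10.85 on GFW arrays and Retnlg under the 40th percentile in MDSC. Of the macrophage markers 4 were lower and 1 higher than in GFW, where their list means were 8.04 to 8.32. All 3 B cell markers were lower than in GFW, with list means of 5.02 to 5.15 on MDSC arrays and 5.79 to 6.41 on GFW arrays and Cd79a and Ms4a1 under the 40th percentile in MDSC. Of 8 progenitor markers, 5 were higher and 2 lower in MDSC than in RB, and 1 was higher and 4 lower than in GFW. Their list means were 6.74 to 6.83 on MDSC arrays, 5.78 to 6.11 on RB arrays and 7.28 to 7.41 on GFW arrays, with Sox4 under the 40th percentile in RB. The part of these markers in the results was not tested.

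The cultured populations differed from each other by much less. Of 41 members, 3 were higher and 9 lower in MDSC than in GFE, beside 16.6% and 18.9% of all genes. By these calls the share of lower members was near that of all genes. By the overlap of arrays it was larger. Every MDSC array lay below every GFE array for 20 members and above for 6, beside 27.9% and 24.9% of all genes. The median difference was -0.19, beside 0.0 over all genes, and the range was -0.86 to 0.81. Averaged over the members, the signal was 8.67 to 8.74 on MDSC arrays and 8.83 to 8.86 on GFE arrays. The count of lower calls rests on single arrays: it was 4 without MDSC replicate 1 or 2 and 5 without GFE replicate 1 or 2. In a fit of these 6 arrays alone, 5 members were higher and 15 lower, beside 2961 and 3410 of all 14822 genes.

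Cdc45, which joins Mcm2-7 and GINS in the active helicase, had 9.16, 9.05 and 9.41 on MDSC arrays, against 8.46, 8.40 and 8.39 on GFE arrays (difference 0.79 ± 0.15, adjusted p = 0.000445). Rrm2, the small subunit that limits ribonucleotide reductase in cycling cells, had 11.01, 11.20 and 10.97 on MDSC arrays, against 10.25, 10.20 and 10.30 on GFE arrays (difference 0.81 ± 0.18, adjusted p = 0.0017). Tk1 had 8.71, 8.56 and 8.51 on MDSC arrays, against 8.29, 8.17 and 8.33 on GFE arrays (difference 0.33 ± 0.12, adjusted p = 0.0348). These 3 were higher on every MDSC array than on every GFE array. The call of Tk1 ended without MDSC replicate 1 or 2 or any 1 GFE array, with an adjusted p of 0.0505 to 0.139, while those of Cdc45 and Rrm2 held under all 12 alternatives.

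Polymerase genes led the lower calls. Pole, the catalytic subunit of the leading strand polymerase, had 7.57, 7.73 and 7.76 on MDSC arrays, against 8.53, 8.52 and 8.60 on GFE arrays (difference -0.86 ± 0.12, adjusted p = 3.96e-05). Its other probe set differed by -0.06, and the mean of both by -0.46. Pola1 had 8.37, 8.41 and 8.36 on MDSC arrays, against 9.04, 9.07 and 9.11 on GFE arrays (difference -0.70 ± 0.16, adjusted p = 0.00245). The spread within either group was far below that gap. Timeless had 6.63, 6.36 and 6.53 on MDSC arrays, against 7.28, 6.95 and 7.33 on GFE arrays (difference -0.68 ± 0.16, adjusted p = 0.00233). Rfc3 had 7.96, 7.82 and 8.09 on MDSC arrays, against 8.50, 8.46 and 8.35 on GFE arrays (difference -0.48 ± 0.12, adjusted p = 0.0045). The calls of Pole, Pola1, Timeless and Rfc3 held under all 12 alternatives.

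Mcm6 had 10.25, 10.20 and 10.34 on MDSC arrays, against 10.75, 10.74 and 10.63 on GFE arrays (difference -0.44 ± 0.15, adjusted p = 0.0268). Its call ended without MDSC replicate 1 or 2 or GFE replicate 1 or 2 (adjusted p 0.0685 to 0.0845). The other lower calls were Mcm3 (-0.34), Mcm7 (-0.34), Pcna (-0.30) and Pold3 (-0.30), each of which ended without at least 4 of the 6 arrays in turn: Mcm3 without any array but MDSC replicate 3 (up to 0.141), Mcm7 without MDSC 1 or 2 or GFE 2 or 3 (up to 0.103), Pcna without MDSC 1 or 2 or GFE 1 or 3 (up to 0.0722) and Pold3 without any 1 of the 6 (up to 0.129). The replicate block ended the call of Pold3 as well (adjusted p = 0.0593). In licensing the largest difference was -0.09 ± 0.12 for Cdt1 (adjusted p = 0.637), which had 8.55, 8.59 and 8.68 on MDSC arrays, against 8.69, 8.63 and 8.78 on GFE arrays, so the groups overlapped. Fen1 had 7.62, 7.95 and 7.72 on MDSC arrays, against 7.24, 7.27 and 7.42 on GFE arrays. Its groups did not overlap, and its difference of 0.45 ± 0.18 did not pass the test (adjusted p = 0.069).

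**Figure D4:**
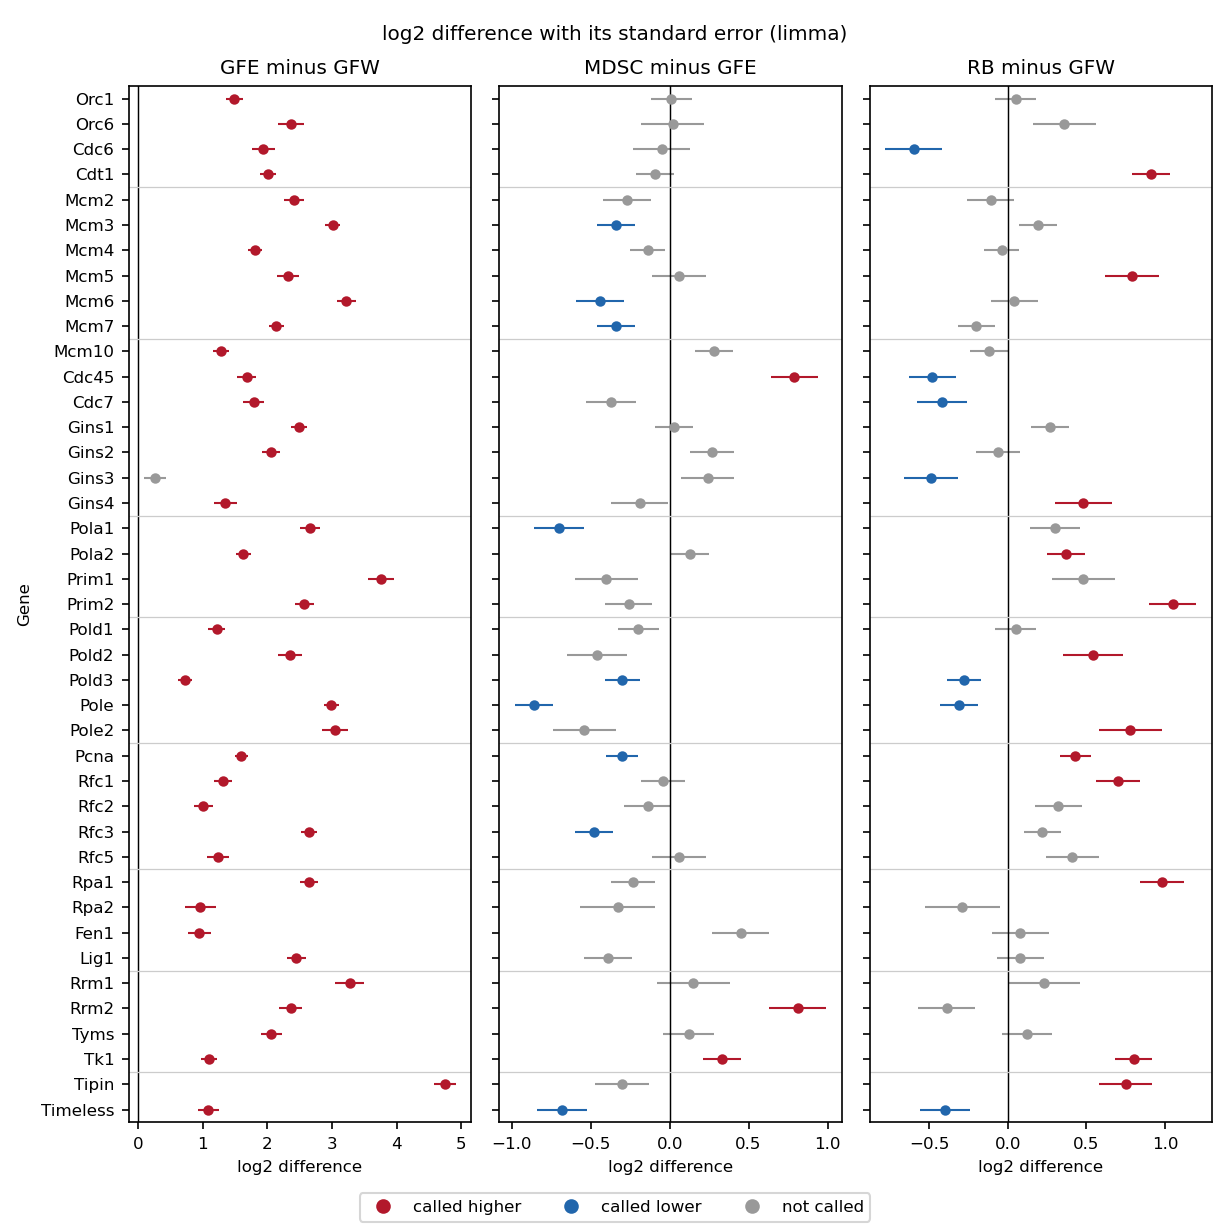
Log2 difference of each member with limma's standard error for GFE minus GFW, MDSC minus GFE and RB minus GFW, with calls in red (higher), blue (lower) or grey (not called). The first panel runs to 4.74, while the other panels stay between -0.86 and 1.05.

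Most mitosis genes were higher in MDSC than in GFE. Of 15, 13 were called higher and 0 lower (median 0.84, range 0.08 to 1.97). Plk1, a kinase of mitotic entry, had 10.06, 10.01 and 10.18 on MDSC arrays, against 7.92, 8.30 and 8.11 on GFE arrays (difference 1.97 ± 0.16, adjusted p = 6.34e-08). Aurka was higher by 1.60, Ccnb2 by 1.32 and Birc5 by 1.05. Among the G1 and S regulators 9 were higher and 7 lower, with the S phase cyclin gene Ccne1 at 1.31 ± 0.13 (adjusted p = 6.73e-07) and Cdk6 at -1.30 ± 0.18 (adjusted p = 2.61e-05). Further replication genes had 3 higher and 8 lower (Mtbp at -1.05), nucleotide supply 1 higher and 4 lower (Dctd at -1.87) and replication-coupled chromatin 3 higher and 0 lower (Asf1b at 1.22). The difference between the mitosis and replication lists was not tested. All 8 progenitor markers were lower in MDSC, with list means of 6.74 to 6.83 on MDSC arrays and 9.85 to 9.99 on GFE arrays. Of 8 neutrophil markers 7 were higher, with list means of 8.35 to 8.39 on MDSC arrays and 4.99 to 5.24 on GFE arrays. Retnlg stayed under the 40th percentile in MDSC. Of 7 monocyte markers 5 were higher and 1 lower, and of 6 macrophage markers 3 were higher and 0 lower. The part of these markers in the result was not tested.

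**Figure D5:**
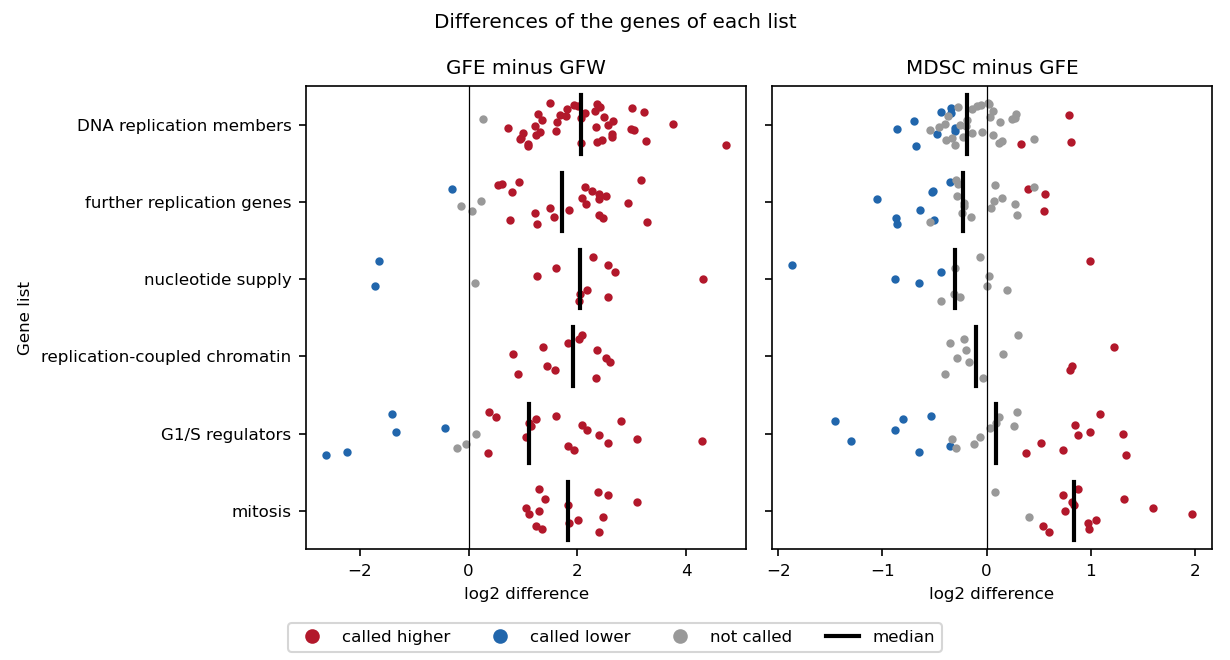
Log2 differences of the genes of each list (points, coloured by call) with the list's median (bar), for GFE minus GFW and MDSC minus GFE. In the right panel the median of the replication members is -0.19 and that of the mitosis genes is 0.84.

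RB and GFW arrays carry the same labels, and the comparison gives the difference between these sets of uncultured cells. Of 41 members, 12 were higher and 7 lower in RB, beside 25.8% and 26.5% of all genes, so the share of higher calls was near that of all genes. The median difference was 0.19, beside -0.06 over all genes. After each array was centred on its median, 15 were higher and 2 lower. Lower calls numbered 4 without RB replicate 1 or 2, 2 without GFW replicate 1 and 3 without GFW replicate 3. List means of the members were 6.93 to 7.03 on RB arrays and 6.77 to 6.82 on GFW arrays.

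Prim2, the large primase subunit, had 6.04, 6.57 and 6.57 on RB arrays, against 5.48, 5.24 and 5.29 on GFW arrays (difference at least 1.05 ± 0.15, adjusted p = 2.96e-05). Rpa1 had 7.72, 7.25 and 7.22 on RB arrays, against 6.25, 6.59 and 6.43 on GFW arrays (difference 0.98 ± 0.14, adjusted p = 3.79e-05). Cdt1, the licensing factor, had 7.46, 7.68 and 7.66 on RB arrays, against 6.91, 6.62 and 6.54 on GFW arrays (difference 0.91 ± 0.12, adjusted p = 2.05e-05). None of these overlapped. Tk1 had 8.02, 7.90 and 7.99 on RB arrays, against 7.29, 7.06 and 7.15 on GFW arrays (difference 0.80 ± 0.12, adjusted p = 3.17e-05). Mcm5 had 7.24, 7.25 and 7.30 on RB arrays, against 6.33, 6.19 and 6.91 on GFW arrays (difference 0.79 ± 0.17, adjusted p = 0.00127). GFW replicate 3 lay nearest to the RB arrays for Mcm5.

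Pole2 had 5.98, 5.57 and 5.99 on RB arrays, against 5.04, 5.31 and 4.84 on GFW arrays (difference at least 0.78 ± 0.20, adjusted p = 0.0048). Tipin had 6.35, 5.84 and 5.58 on RB arrays, against 5.27, 5.33 and 4.94 on GFW arrays (difference at least 0.75 ± 0.17, adjusted p = 0.00223). Both genes lay close to the filter level in both groups. Rfc1, the large clamp loader subunit, had 8.68, 8.28 and 8.45 on RB arrays, against 7.82, 7.91 and 7.58 on GFW arrays (difference 0.70 ± 0.14, adjusted p = 0.000522). The other higher calls were Pold2 (0.54), Gins4 (0.48), Pcna (0.43) and Pola2 (0.37). Of these, Pold2 ended without any 1 of RB 1, RB 2 and GFW 2 (up to 0.145, with a difference of 0.26 without GFW 2), Gins4 without any 1 of RB 1, RB 2, GFW 1 and GFW 3 (up to 0.156), and Pola2 without GFW replicate 1 or 2 (up to 0.062).

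Of the 7 members lower in RB, Cdc45 had 6.44, 6.18 and 6.15 on RB arrays, against 6.76, 6.64 and 6.82 on GFW arrays (difference -0.48 ± 0.15, adjusted p = 0.0118). It was the only one of the 7 whose call held under all 12 alternatives. Cdc6 had 5.44, 5.81 and 6.13 on RB arrays, against 6.72, 6.11 and 6.34 on GFW arrays (difference -0.60 ± 0.18, adjusted p = 0.0113). The groups of Cdc6 overlapped, and its call ended without RB replicate 1 (0.0659) or GFW replicate 1 (0.0643). Gins3 had 7.05, 6.95 and 6.57 on RB arrays, against 7.45, 7.22 and 7.35 on GFW arrays (difference -0.49 ± 0.17, adjusted p = 0.0248), and its call ended without any 1 of RB 3, GFW 1 and GFW 3 (up to 0.114).

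Cdc7 had 6.16, 5.54 and 5.85 on RB arrays, against 6.10, 6.35 and 6.35 on GFW arrays, and the groups overlapped (difference -0.42 ± 0.16, adjusted p = 0.0413). Timeless had 5.62, 5.70 and 5.77 on RB arrays, against 6.06, 5.91 and 6.34 on GFW arrays (difference -0.40 ± 0.16, adjusted p = 0.0397). Pole had 5.44, 5.39 and 4.92 on RB arrays, against 5.58, 5.51 and 5.59 on GFW arrays, all near the filter level (difference -0.31 ± 0.12, a bound, adjusted p = 0.0495). Each of these calls stood just under the threshold. Pold3 had 7.78, 7.70 and 7.91 on RB arrays, against 8.17, 8.17 and 7.90 on GFW arrays, with an overlap at GFW replicate 3 (difference -0.28 ± 0.11, adjusted p = 0.0387). These 4 calls each ended without 4 of the 6 arrays in turn: Cdc7 without RB 2 or 3 or GFW 2 or 3 (up to 0.194, with a difference of -0.26 without RB 2), Timeless without RB 1 or 2 or GFW 1 or 3 (up to 0.171), Pole without RB 3 or any 1 GFW array (up to 0.261, with a difference of -0.14 without RB 3) and Pold3 without RB 1 or 2 or GFW 1 or 2 (up to 0.124). The other probe set of Pole differed by -0.05, and the mean of both by -0.18 (adjusted p = 0.195). The replicate block ended Cdc7 (adjusted p = 0.0567), Pold3 (0.0538) and Pole (0.0685).

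Among the lists for comparison, 11 of 26 further replication genes were higher and 2 lower in RB, led by the nuclease gene Dna2 (1.78 ± 0.09, adjusted p = 4.48e-10). Of 15 mitosis genes 3 were higher and 1 lower, and of 25 G1 and S regulators 9 were higher and 8 lower, with the cyclin gene Ccnd2 at -1.95 ± 0.14 (adjusted p = 1.36e-08). Of 7 monocyte markers 6 were higher in RB, with list means of 11.59 to 11.67 on RB arrays and 8.24 to 8.31 on GFW arrays, where Fn1 was under the 40th percentile. Of 8 neutrophil markers 6 were lower and 1 higher, with list means of 8.23 to 8.28 on RB arrays and 10.77 to 10.85 on GFW arrays. Of 6 macrophage markers 4 were lower and 2 higher. The macrophage list means were 7.56 to 8.11 on RB arrays and 8.04 to 8.32 on GFW arrays, and Cd5l was under the 40th percentile in RB. Of 8 progenitor markers 7 were lower and 0 higher, with list means of 5.78 to 6.11 on RB arrays and 7.28 to 7.41 on GFW arrays and Sox4 under the 40th percentile in RB. All 6 tested genes of the sort gate were lower, with list means of 7.71 to 7.84 on RB arrays and 9.22 to 9.38 on GFW arrays. All 3 B cell and all 3 tested T and NK cell markers were lower. The B cell list had means of 4.67 to 5.18 on RB arrays and 5.79 to 6.41 on GFW arrays, with Cd79a and Ms4a1 under the 40th percentile in RB. The T and NK cell list had means of 5.41 to 5.68 on RB arrays and 6.41 to 6.45 on GFW arrays, with Cd3e under the 40th percentile in both and Cd8a in RB. The part of these markers in the result was not tested.

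The comparison of the arrays labelled iNOS knockout with GFW found 0 of 41 members higher and 0 lower with limma, beside 1.3% and 0.317% of all genes (192 and 47 genes). Over all genes, higher calls numbered 102 without GFK replicate 3 and 123 without GFW replicate 3, and lower calls 27 to 31 without any 1 GFK array or GFW replicate 2 or 3. At an unadjusted p under 0.05, 1 member (Tipin) was higher and 4 (Mcm7, Gins3, Pold3 and Rpa1) were lower, beside 6.61% and 5.18% of all genes. The median difference was -0.03, beside -0.01 over all genes. Gins3 stood farthest from 0: it had 6.29, 6.71 and 6.98 on GFK arrays, against 7.45, 7.22 and 7.35 on GFW arrays (difference -0.68 ± 0.17, adjusted p = 0.0584). All GFK arrays lay below all GFW arrays for Gins3, as for 7.91% of all genes. Without GFK replicate 3 it was called (-0.84, adjusted p = 0.0288), and without GFK replicate 1 it was not (-0.5, adjusted p = 0.214). Over the alternatives that did not call it, its adjusted p ran from 0.0583 to 0.214. Tipin differed by 0.38 ± 0.17 (adjusted p = 0.4), with its GFW mean under the 40th percentile, and Mcm7 by -0.36 ± 0.12 (adjusted p = 0.167). Of the lists of cell cycle genes, 3 genes were called: the origin recognition gene Orc4 (-0.57 ± 0.13, adjusted p = 0.0434), the E2F partner gene Tfdp1 (-0.60 ± 0.11, adjusted p = 0.00775) and Ccnd2 (0.65 ± 0.14, adjusted p = 0.0235). Of the cell type markers, 6 were called, all higher on the arrays labelled iNOS knockout. They were 2 of 6 macrophage markers, Cd5l (1.66 ± 0.19, adjusted p = 0.000222) and C1qb (0.84), 2 of 7 monocyte markers, Ace (0.88) and Treml4 (0.74), 1 of 3 B cell markers, Cd79a (1.58), and 1 of 8 progenitor markers, Hlf (0.50). Macrophage list means were 8.63 to 9.07 on GFK arrays and 8.04 to 8.32 on GFW arrays, and monocyte list means 8.38 to 8.45 on GFK arrays and 8.24 to 8.31 on GFW arrays, with Fn1 under the 40th percentile in both. B cell list means were 6.63 to 6.97 on GFK arrays and 5.79 to 6.41 on GFW arrays. Their part in these values was not tested. A difference that misses the threshold does not show that the groups are alike.

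Across the 5 groups nearly all members were higher on arrays of cultured cells than on arrays of uncultured cells, without forming 2 common levels. Tk1 had group means of 7.97 in RB, 8.26 in GFE and 7.17 in GFW. Timeless had 6.51 in MDSC, 7.19 in GFE and 6.10 in GFW. MDSC cells came from bone marrow and the other groups from spleen, so for MDSC culture and source cannot be told apart. For 40 of 41 members all 6 GFE and MDSC arrays lay above all 9 arrays of GFK, RB and GFW, which held for 15.6% of all genes. The exception was Rpa2, where MDSC replicate 3 and GFK replicate 3 both had 8.15. The highest group mean was in GFE for 26 members and in MDSC for 15, beside 26.1% and 18.0% of all genes. The lowest was in GFK for 15, in RB for 10 and in GFW for 16. Among the uncultured groups, no member was called between GFK and GFW, beside 1.3% of all genes called higher and 0.317% lower, so this is near the share of all genes. List means were 6.67 to 6.87 on GFK arrays and 6.77 to 6.82 on GFW arrays, and GFK was not compared with RB.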

How the data were processed

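RNA of 15 samples was measured on 1 Affymetrix array each, from 6 ug of total RNA per the labels' protocols. The authors deposited log2 values made with RMA in oligo, per the submitters' processing notes. RMA includes background correction, quantile normalisation and a summary per probe set. Array medians of the deposited values still differed, between 5.52 and 5.72, and the cause of this was not tested. For RMA and oligo, the version is not given in the sources used here, nor is the annotation's genome build. Of 41345 probe sets, 23521 were listed with 1 gene symbol in the platform annotation, 1814 with several and 16010 with none. The first kind was used, and 23328 of them matched RefSeq by gene identifier. Each of 22180 genes was represented by its probe set of highest mean signal. The filter asked for 3 or more arrays with a signal above the array's own 40th percentile (5.34 to 5.58 log2) and left 14822 genes. Pole, Rpa1, Fen1 and Rrm2 have 2 probe sets each. No 2 arrays were identical.

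A model with 1 mean per group was fitted to all 15 arrays together by limma 3.58.1 (R 4.3.3; functions lmFit and eBayes), which had 10 residual and 5.33 prior degrees of freedom. The 6 comparisons share arrays. On data simulated for GFE minus GFW over 14822 genes, 87 of 100 genes changed by 1 log2 unit and 99 of 100 changed by 2 were recovered, with 8 false calls. Only these genes were changed, in GFE alone, with independent normal errors. In the measured data 35.1% of genes were called higher and 31.9% lower there, so the simulation does not give the error rate of the real fit. Alternatives were a fit of the 6 arrays compared, each array centred on its median, no filter, the mean over probe sets, a trended and robust eBayes, the replicate number as a block, and leaving out each array. Tables and figures used Python 3.11.15, numpy 2.4.6, pandas 2.3.3 and matplotlib 3.10.9.

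The members, the lists, the motifs and the rule for naming genes were chosen with earlier results of these data known. Values on every array are given for the member with the largest difference of each function in GFE minus GFW, MDSC minus GFE and RB minus GFW, and for called members opposite to the majority. Of other lists, up to 4 called genes with the largest difference are named. The 8 members without a promoter window are Mcm4, Gins1, Gins2, Gins4, Prim2, Pole, Rfc2 and Tipin. The number of arrays limits the precision.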

Additional observations from a re-analysis of the deposited data

How the results depend on the processing

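Of 153 calls of members over the 6 comparisons, 135 held under each of the 12 alternatives of their comparison, 18 lost significance under at least 1 and 0 reversed. The 40 calls of GFE minus GFW and the 41 of MDSC minus RB were among those that held. Of the others, 6 of 12 were lost in MDSC minus GFE, 3 of 41 in MDSC minus GFW and 9 of 19 in RB minus GFW. In a fit of the 6 arrays compared, MDSC minus GFE had 5 members higher and 15 lower, and RB minus GFW 3 lower, where the spread is estimated from fewer arrays. With each array centred on its median, 2 members were lower in RB, and without the filter 4 were. With a trended and robust eBayes, 1 member, Gins3, was lower in GFK minus GFW (adjusted p = 0.0422). Calls of members were also ended by the fit of 6 arrays (Cdc7, Gins4, Pola2, Pold2, Pold3, Pole and Timeless in RB minus GFW), by centring (Cdc7, Gins3, Pold3, Pole and Timeless there, and Mcm3, Pold3 and Tk1 in MDSC minus GFE) by the mean over probe sets and the trended fit (Pole in RB minus GFW, adjusted p = 0.195 and 0.0728) and without the filter (Cdc7, Pold3 and Pole, and Mcm3, Pold3 and Tk1 in MDSC minus GFE). Leaving out each array in turn gave 0 to 1 members lower in GFK minus GFW, 2 to 3 higher and 4 to 9 lower in MDSC minus GFE, 38 to 41 higher in MDSC minus GFW, and 10 to 14 higher and 2 to 6 lower in RB minus GFW. Apart from the changes named here and in the comparisons, the cause of a lost call was not tested. Centring moved the median of all genes from -0.06 to 0.07 in GFE minus GFW and from -0.08 to 0.04 in MDSC minus GFW. It also moved the calls over all genes from 5198 higher and 4733 lower to 5783 and 3286 in GFE minus GFW, and from 4781 and 4444 to 5306 and 3094 in MDSC minus GFW. The calls over all genes in GFK minus GFW, 192 higher and 47 lower, were 72 and 2 in the fit of 6 arrays, and lower calls were 29 with centring, 30 without the filter and 79 with the trended fit. Without 1 array they were 102 to 150 higher and 27 to 42 lower. The replicate number was also fitted as a block. Deviations of same-numbered arrays correlated between -0.13 and 0.10 over 30 pairs. These correlations showed no pairing over all tested genes, but they cannot exclude one that affects only some genes. With the replicate block 8 members were lower in MDSC minus GFE, 13 were higher and 5 lower in RB minus GFW, and 40 were higher in GFE minus GFW. Where a group mean lay under the 40th percentile (Prim1, Prim2, Pole2 and Tipin in GFW, Pole in RB, and Prim1, Pole and Pole2 in GFK), called differences against it are bounds and the others are uncertain.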
